A study of Oryctolagus cuniculus with 4 samples.

Results

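The genes described here are those of antioxidant defence, glutathione use and aldehyde detoxification in 4 intact semitendinosus tendons of the rabbit. They were chosen by symbol alone: symbols that start with GPX, PRDX, TXN, GST, GCL, HMOX, NQO, ALDH, AKR, MSRA or MSRB, together with SOD1, SOD2, CAT, FTL, FTH1, GSR, GSS and NFE2L2. The rule found 68 genes of 20294 in the deposited table, all annotated as protein coding, with 78 transcripts. SOD2 and FTH1 had no entry under those names. The tendons came from 4 female New Zealand White rabbits aged 193 days, 1 tendon each, and formed a single group with no treatment or control in the labels. Surgeons take the semitendinosus, a hamstring tendon, to rebuild torn ligaments; muscle on its surface was removed with a scalpel before freezing, and poly(A) RNA of the whole ground tissue was sequenced. The series title calls the tissue allograft and the sample labels autograft, while the sample descriptions call it intact.

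Cells make superoxide and hydrogen peroxide during respiration and during the oxidative folding of secreted proteins. Superoxide dismutases turn superoxide into hydrogen peroxide, and catalase, peroxiredoxins and glutathione peroxidases then reduce the peroxide, drawing on thioredoxin or glutathione that is regenerated with NADPH. Glutathione S-transferases, aldehyde dehydrogenases and aldo-keto reductases clear reactive electrophiles and aldehydes, and ferritin stores iron in a form that does not feed radical chemistry. NFE2L2 (NRF2) is the transcription factor that binds the antioxidant response element of many of these genes. A tendon is sparsely supplied with vessels, and its fibroblasts secrete large amounts of collagen, which is folded and disulfide-bonded in the endoplasmic reticulum.

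Tendons 1 to 4 had 19759696, 30646052, 27304439 and 30038827 estimated counts in all, fewest in tendon 1. The members held between 84045 and 147711 of them, so counting error is small for members above a few TPM. TPM corrects the estimated count for transcript length and gives all tendons equal totals, and it is the scale used to compare genes with each other. A gene was compared between tendons in CPM, which has no length correction, after TMM, a scaling that balances most genes between libraries. The 2 scales differed most in tendon 2, where the median log2 difference of TPM from TMM-normalised CPM was -0.14, against 0.06 in tendons 1 and 4. Of the tendon markers, 8 of 10 had an entry and 8 had a mean of at least 1 TPM, and their summed level was 67360.4, 50864, 33939 and 30757 TPM in tendons 1 to 4. SCX and COMP had no entry under those symbols.

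Most members were expressed at moderate to high levels, and together they held a nearly constant share of TPM. Without length correction their share of estimated counts was 0.425, 0.477, 0.488 and 0.492% in tendons 1 to 4, lowest in tendon 1. Their share of TPM was 0.596, 0.614, 0.631 and 0.635% from tendon 1 to tendon 4 and averaged 0.619% ± 0.0179 (SD, n = 4), with the highest tendon 1.07 times the lowest. A mean of at least 1 TPM was reached by 60 of 68 members, against 63.0% of all genes in the table, at least 10 TPM by 53 members, against 43.0%, and at least 100 TPM by 17 members (25.0%), against 7.07%. The median of the members' mean levels was 33.4 TPM, and that of all genes 5.65 TPM. Among the 13225 genes with a symbol the median was 11.8 TPM.

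The shares by role cover only members with an entry. GPX1 to GPX4, PRDX2, PRDX3, PRDX5, TXN, SOD2 and FTH1 had none, and related genes without a symbol are not counted. The order therefore depends on which symbols the deposited annotation holds. By role, the order of the mean shares was led by ferritin, at 0.167% ± 0.0157 of TPM (SD, n = 4), and by glutathione S-transferases, at 0.0874% ± 0.00383. Peroxiredoxins took 0.0728% ± 0.00515, aldehyde dehydrogenases 0.0603% ± 0.00424 and thioredoxin domain proteins 0.0481% ± 0.00203. The thioredoxin system took 0.0382% ± 0.00918, superoxide dismutase and catalase 0.0313% ± 0.00255, and methionine sulfoxide reductases 0.0287% ± 0.00190. Glutathione peroxidases took 0.0229% ± 0.00377, heme oxygenases with quinone reductases 0.0225% ± 0.00136, aldo-keto reductases 0.0162% ± 0.00513, NFE2L2 0.0154% ± 0.00221 and the enzymes of glutathione synthesis and reduction 0.00868% ± 0.000825. Ferritin alone held 26.9% ± 1.96 of the members' TPM. The ranges over tendons did not touch between ferritin and the transferases, between the transferases and the peroxiredoxins, between the aldehyde dehydrogenases and the thioredoxin domain proteins, or between NFE2L2 and the glutathione enzymes. The ranges of the other 8 pairs of neighbours in this order overlapped, and glutathione peroxidases stood above heme oxygenases and quinone reductases in only 2 of 4 tendons, as did aldo-keto reductases above NFE2L2. Thioredoxin domain proteins stood above the thioredoxin system in 3 of 4. Without length correction, aldehyde dehydrogenases led with 0.105% of counts, ahead of the transferases at 0.0748% and ferritin at 0.0691%.

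**Figure D1:**
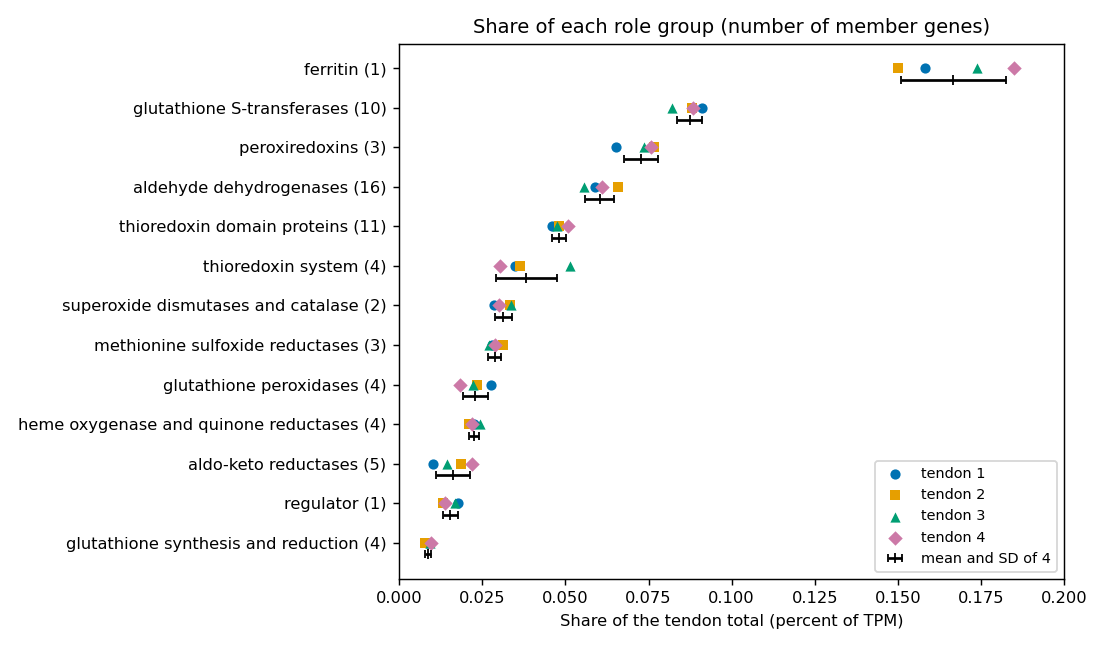
Percent of each tendon's TPM taken by each role group (points, tendons 1 to 4; black bars, mean and SD of 4; number of genes in brackets). Family genes without an entry under their symbol are not counted. Ferritin lay between 0.150% and 0.185%, above the other groups in all 4 tendons, and the thioredoxin system and aldo-keto reductases were among the groups with the widest relative spread.

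FTL (ENSOCUG00000000014.3, scaffold GL019028, 86633 to 87941), the light chain of ferritin, was the most abundant member at 1583, 1499, 1738 and 1849.7 TPM in tendons 1 to 4, and averaged 1667 ± 157 TPM (SD, n = 4). It stood at place 54 among genes with a symbol. All 4 tendons lay close together. Coordinates are those of the deposited table, and the build named in the submitters' processing notes is OryCun2.0.

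Among the members with an entry that act on superoxide and peroxide, PRDX1, SOD1 and PRDX6 had the highest mean TPM. SOD1, the copper and zinc superoxide dismutase, had 242, 292, 275 and 230.3 TPM in tendons 1 to 4. CAT, the peroxisomal catalase, had 42.3, 40.8, 61.3 and 69.8 TPM, with tendons 3 and 4 above tendons 1 and 2. PRDX1, a cytosolic thiol peroxidase that thioredoxin reduces, had 393, 474, 455 and 467 TPM, the highest mean TPM after ferritin, though TXNIP stood above it in tendon 3 and GSTP1, TXNIP and NFE2L2 stood above it in mean CPM. PRDX6, a peroxidase that uses glutathione, had 233, 266, 259 and 269.9 TPM, and tendon 1 was the lowest for both. PRDX4, the peroxiredoxin of the endoplasmic reticulum, was lower at 27.5, 24.3, 20.5 and 21.9 TPM. Its annotated transcript is 5580 bases long, against 883 for PRDX1 and 846 for PRDX6. In mean TMM-normalised CPM, without length correction, PRDX4 stood at 71.8, against 216 for PRDX1 and 119 for PRDX6.

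The 4 glutathione peroxidases with an entry were GPX5 to GPX8. GPX7 and GPX8, peroxidases of the endoplasmic reticulum that work with protein disulfide isomerase, had 51.8, 49.1, 34.9 and 49.4 TPM and 50.6, 47.4, 46.6 and 46.0 TPM, respectively. GPX7 was lower in tendon 3 than in the others, while the 4 values of GPX8 were close. GPX5 (ENSOCUG00000016836.3, chromosome 12, 10426687 to 10500583), known as a secreted enzyme of the epididymis, was listed at 172, 138, 141 and 88.0 TPM, a mean of 135 ± 34.9 TPM, on 1168, 1605, 1464 and 1003 estimated counts. Tendon 1 was highest and tendon 4 lowest. All of these counts fell on the shorter of 2 annotated transcripts, 678 bases long, and the longer had 0 in every tendon. GPX6, whose gene lies within the span of GPX5 on the opposite strand, had 1, 0, 2 and 0 counts. GPX1 to GPX4 were not analysed here, because no entry carried those symbols, and whether counts given to GPX5 derive from a related gene was not tested.

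In the thioredoxin system, the inhibitor was more abundant than the reductases. TXNIP, which binds thioredoxin and restrains it, had 293, 309, 458 and 254 TPM in tendons 1 to 4, with tendon 3 above the other 3. TXNRD1, the cytosolic selenoenzyme that reduces thioredoxin, had 45.0, 45.5, 46.9 and 38.6 TPM. The mitochondrial reductase TXNRD2 had 6.57, 8.13, 7.23 and 9.44 TPM and TXNRD3 had 2.25, 1.25, 1.76 and 1.37 TPM. Thioredoxin itself, TXN, had no entry under its symbol.

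The 11 thioredoxin domain proteins had 2 members at 100 TPM or more. TXNL4A, a component of the spliceosome, had 116, 142, 122 and 132 TPM, and TXNDC17, a cytosolic thioredoxin-like protein, had 102, 89.7, 119.9 and 121 TPM. TXNDC5, a disulfide isomerase of the endoplasmic reticulum, had 86.0, 82.7, 63.6 and 98.5 TPM, with tendon 3 the lowest. TXNDC12, also of the endoplasmic reticulum, had 35.9, 37.2, 42.7 and 38.8 TPM. TXNL1, TXNL4B, TXNDC15 and TXNDC11 had means between 23.7 and 38.3 TPM, and TXNDC16 had a mean of 1.15 ± 0.421 TPM. TXNDC2 and TXNDC8, known from male germ cells, had at most 2 counts in any tendon.

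Methionine sulfoxide reductases, which repair oxidised methionine, were led by a form of the endoplasmic reticulum and mitochondria. MSRB3 had 190.04, 176, 153 and 152 TPM in tendons 1 to 4, MSRB1, a selenoprotein, 69.3, 115, 91.7 and 109 TPM, and MSRA 19.0, 22.5, 25.2 and 27.3 TPM. MSRB1 and MSRA were lowest in tendon 1 on both scales, while MSRB3 was highest in tendon 1 in TPM and in tendon 2 in TMM-normalised CPM. The annotated MSRB1 transcript is 381 bases long.

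Of 10 glutathione S-transferases, 9 had a mean of at least 1 TPM and 3 a mean of at least 100 TPM. GSTM3 had 239, 223, 211 and 231 TPM, GSTP1 240.4, 216, 209 and 183 TPM and GSTM2 156, 168, 126 and 149 TPM in tendons 1 to 4; all 3 conjugate glutathione to electrophiles. GSTP1 was highest in tendon 1 and lowest in tendon 4 in TPM, but highest in tendon 2 in TMM-normalised CPM. GSTM4 had 83.9, 85.0, 81.5 and 85.9 TPM, and its 4 values were close. The omega class enzyme GSTO1, GSTK1 of mitochondria and peroxisomes, and GSTZ1 of tyrosine breakdown had means of 82.0 ± 12.5, 51.4 ± 4.54 and 48.0 ± 7.44 TPM. GSTA4, which acts on products of lipid peroxidation, had 16.2 ± 3.21 TPM and GSTCD 3.15 ± 0.455 TPM. GSTO2 had 1, 16, 9 and 13 counts. GSTM2, GSTM3 and GSTM4 lie within chromosome 13, 54400965 to 54542202, and are related in sequence, so the division of reads among them is uncertain.

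The enzymes that make and recycle glutathione had means between 13.8 and 29.4 TPM, below each of the 7 most abundant transferases on that scale. In mean TMM-normalised CPM, without length correction, only GCLM stood below all 7. GSR then stood above GSTM4, GSTO1 and GSTZ1, and GSS and GCLC stood above GSTZ1. GSS, the second enzyme of its synthesis, had 29.4, 23.9, 30.4 and 34.2 TPM, and GSR, which reduces oxidised glutathione, 24.4, 29.9, 30.996 and 29.0 TPM. GCLC, the catalytic subunit of glutamate-cysteine ligase, had 15.8, 12.8, 15.7 and 15.5 TPM and GCLM, its modifier subunit, 12.7, 11.1, 14.4 and 17.0 TPM. The 2 ligase subunits were close in TPM, with a ratio on either side of 1, whereas in CPM, without length correction, GCLM was below GCLC in all 4 tendons.

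Among targets of NFE2L2 known from other tissues, NQO1 and HMOX1 differed in level. NQO1, a quinone reductase, had 115, 100.5, 133 and 109.7 TPM in tendons 1 to 4 and its relative NQO2 had 31.6, 36.8, 33.7 and 37.7 TPM. HMOX1, the inducible heme oxygenase, had 27.5, 13.5, 23.4 and 19.97 TPM, with tendon 2 lowest. HMOX2, the constitutive form, had 51.6, 60.1, 53.2 and 52.4 TPM. NFE2L2 itself (ENSOCUG00000001009.3, chromosome 7, 116890364 to 117079706) stood at 178, 133, 167 and 137 TPM, with tendons 1 and 3 above tendons 2 and 4. HMOX1, NQO1 and NFE2L2 were each lowest in tendon 2 in TPM, whereas in TMM-normalised CPM only HMOX1 was.

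**Figure D2:**
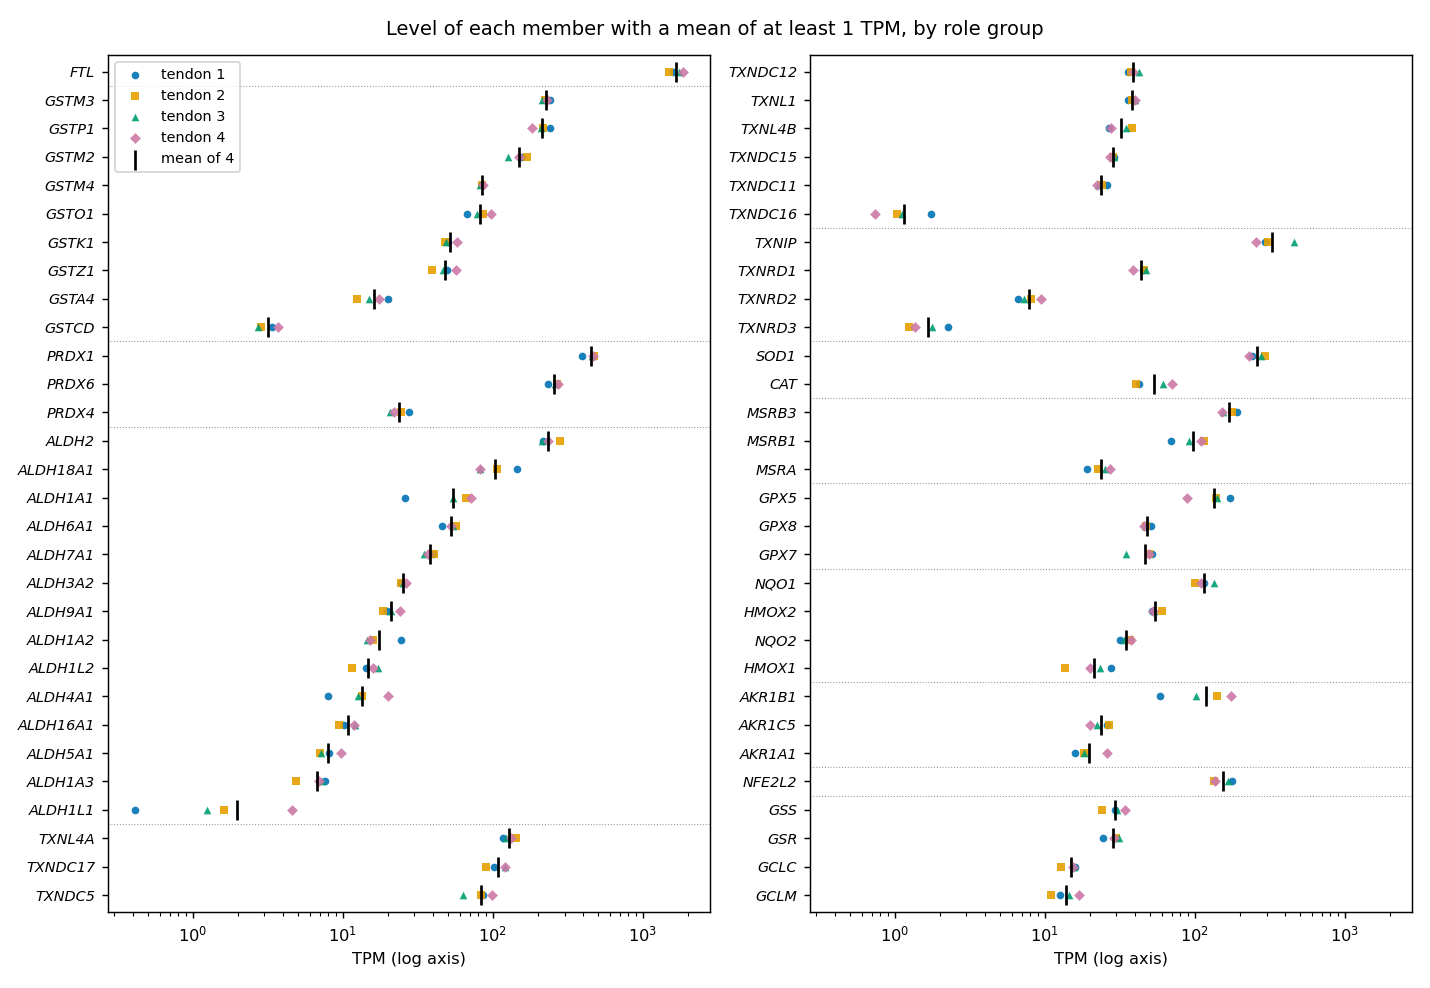
TPM on a log axis of the 60 members with a mean of at least 1 TPM in tendons 1 to 4 (coloured points), with the mean of 4 as a black bar; dotted lines part the role groups. FTL lay at or above 1499 TPM in every tendon, and for most members the 4 points lay close together.

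Aldehyde dehydrogenases were the family with the most members, 16, of which 14 had a mean of at least 1 TPM. ALDH2, the mitochondrial enzyme that oxidises acetaldehyde, led with 215, 280.5, 211 and 232 TPM in tendons 1 to 4. ALDH18A1, which catalyses the first steps of proline synthesis, had 145, 106, 81.8 and 81.5 TPM, and tendon 1 was the highest. ALDH1A1, which makes retinoic acid from retinal, had 25.8, 66.6, 54.5 and 71.1 TPM, and tendon 1 was well below the other 3. ALDH6A1, of valine breakdown, had 45.5, 56.3, 54.3 and 52.9 TPM. ALDH4A1, of proline breakdown, had 7.98, 13.4, 12.7 and 19.9 TPM, lowest in tendon 1 and highest in tendon 4. The other retinal dehydrogenases, ALDH1A2 and ALDH1A3, had means of 17.4 ± 4.57 and 6.68 ± 1.24 TPM. ALDH7A1, ALDH3A2, ALDH9A1, ALDH1L2, ALDH16A1 and ALDH5A1 had means between 7.98 and 38.04 TPM. ALDH8A1 had 0.831 ± 0.212 TPM, and ALDH1B1 had 0 counts in all tendons, for which a limit of 3 counts corresponds to 0.119 to 0.203 TPM.

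The aldo-keto reductases with a symbol were led by AKR1B1, aldose reductase. It had 58.4, 139.8, 102 and 173 TPM in tendons 1 to 4, a mean of 118 ± 49.2 TPM, and tendon 1 was below the other 3. A gene without a symbol, described as aldo-keto and not a member, had 89.5, 145, 85.5 and 98.8 TPM. It stood above AKR1B1 in tendons 1 and 2. AKR1C5 had 26.0, 26.9, 22.4 and 19.97 TPM and AKR1A1, aldehyde reductase, 15.9, 18.4, 18.3 and 25.9 TPM. AKR1D1 and AKR1E2 had 0 counts in all tendons, a limit of 0.137 to 0.235 TPM for AKR1D1 and of 0.160 to 0.273 TPM for AKR1E2. These limits cover counting error only.

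The median spread of the members over tendons was close to that of all genes. Of 68 members, 52 had a mean of at least 10 CPM, as had 43.3% of all genes, and the median of the highest over the lowest tendon was 1.34-fold for them and 1.33-fold for all 8784 genes at this level. The median coefficient of biological variation per gene, estimated with edgeR, was 0.193 over 61 members and 0.205 over 12740 genes. The highest tendon was at least 2 times the lowest for 3 of 52 members (5.77%), against 10% of all genes (881 of 8784), and at least 1.5 times for 14 (26.9%), against 29.1%. Both shares were below those of all genes, and the differences were not tested. Each tendon is a separate library of a separate animal, so the animal cannot be told apart from the tissue sampled or from library preparation.

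The 3 members past 2-fold were ALDH1A1, AKR1B1 and ALDH4A1, and all of them were lowest in tendon 1. Of the 52 members, 48.1% were lowest there, as were 30.1% of all genes at this level. The share among all genes past 2-fold was not computed. In TMM-normalised CPM, ALDH1A1 (ENSOCUG00000009444.3, chromosome 1, 59416689 to 59478488) stood at 73.1, 217, 159.8 and 202, a range of 2.96-fold. AKR1B1 (ENSOCUG00000016605.3, chromosome 7, 12959643 to 12975237) stood at 40.1, 110.2, 72.5 and 118, a range of 2.96-fold, and ALDH4A1 (ENSOCUG00000015315.3, chromosome 13, 133985549 to 134011065) stood at 10.7, 20.7, 17.6 and 26.8, a range of 2.499-fold. Without tendon 1, 0 of 52 members passed 2-fold, against 5.32% of all genes, and without tendon 4 ALDH4A1 no longer did. Just under the threshold stood GPX5 at 1.96-fold, MSRB1 at 1.91-fold and TXNIP at 1.87-fold. In TPM, an alternative chosen after seeing the data, HMOX1 passed as well. With no replicate within an animal there is no test of a single tendon, and these are folds between libraries.

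**Figure D3:**
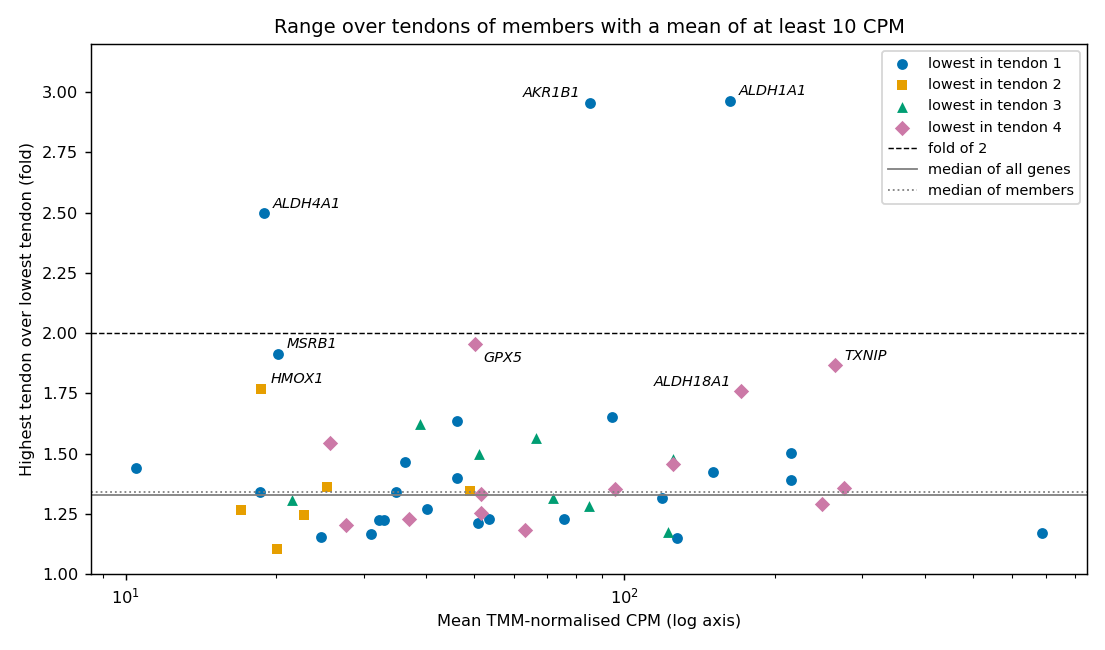
Highest over lowest tendon (fold, TMM-normalised CPM) against the mean level on a log axis for the 52 members with a mean of at least 10 CPM, coloured by the tendon in which each was lowest. ALDH1A1, AKR1B1 and ALDH4A1 lay above the 2-fold line, and the medians of members (dotted) and all genes (grey) nearly coincided at 1.34 and 1.33.

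Cell type markers moved between the same tendons. The summed level of 8 common skeletal muscle markers was 5073, 20436, 10546 and 13700.3 TPM in tendons 1 to 4, and that of 5 slow fibre markers 4414, 16023, 8471 and 9951 TPM. Fast fibre markers, with 7 entries, had 17.4, 80.5, 23.3 and 2387 TPM. The 9 adipocyte markers had 259, 426, 580.1 and 1202 TPM, the 9 macrophage markers 90.9, 72.7, 176 and 226 TPM and the 7 endothelial markers 189.8, 239.7, 326 and 318 TPM. Muscle, adipocyte and endothelial sums were thus lowest in tendon 1, like ALDH1A1, AKR1B1 and ALDH4A1, and the tendon marker sum was highest there. Of the 8 tendon markers with an entry, however, 4 were highest in tendon 1, and FMOD and THBS4 were highest in tendon 2. ASPN was highest in tendon 4. TNMD was highest in tendon 2 in TMM-normalised CPM and in tendon 4 in TPM, at 187 TPM against 158 TPM in tendon 1. The pericyte and smooth muscle sum was also lowest in tendon 1, at 407 TPM, whereas the Schwann cell sum was highest there, at 362 TPM. Only 3 of the 7 Schwann cell markers were highest in tendon 1. PMP22 made up 253 TPM of that sum and was itself highest in tendon 3, at 255 TPM. Of markers averaging at least 10 CPM, 8 of 8 common muscle, 5 of 5 slow fibre and 7 of 7 fast fibre passed 2-fold. So did 6 of 8 tendon, 6 of 6 macrophage and 4 of 5 adipocyte markers. Fewer did among endothelial (2 of 7), pericyte and smooth muscle (1 of 5) and Schwann cell markers (1 of 3). Of all genes at this level, 10% passed. The part of these tissues in the members' values was not tested. In bulk tissue, fewer cells of a type and less RNA per cell cannot be told apart. The 2 erythroid markers with an entry, ALAS2 and SLC4A1, summed to at most 1.40 TPM, and the globin symbols had no entry.

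**Figure D4:**
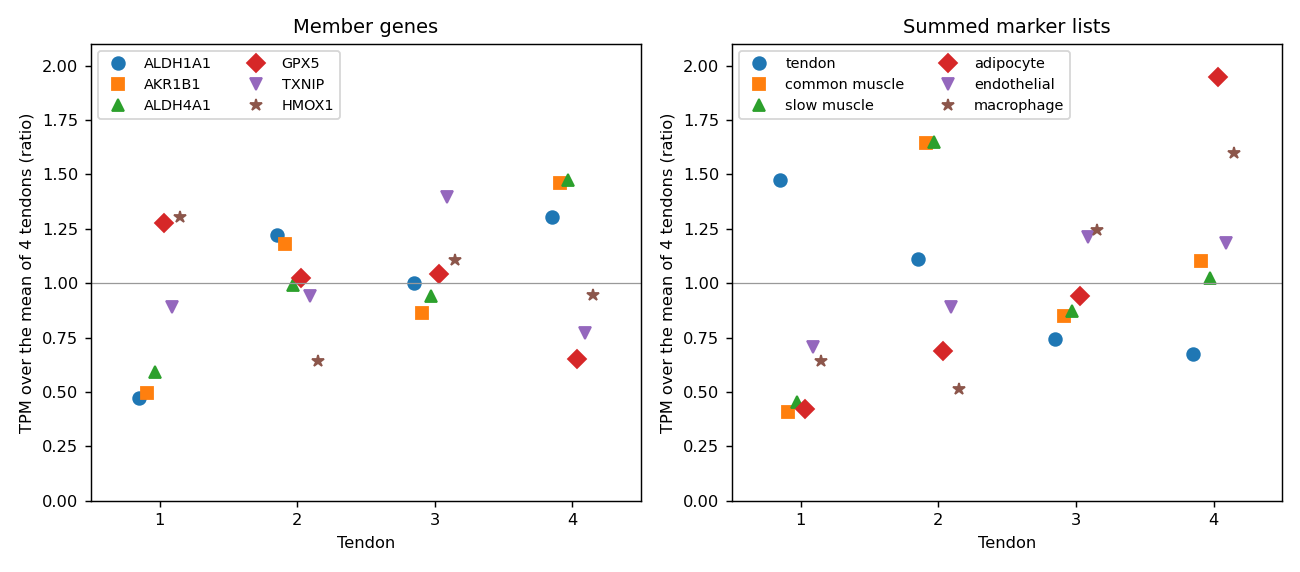
TPM in each tendon divided by the mean of the 4 tendons, for 6 members (left) and for the summed marker lists of 6 tissues or cell types (right); points are offset sideways for legibility. ALDH1A1, AKR1B1 and ALDH4A1 were lowest in tendon 1, where the summed muscle, adipocyte and endothelial markers were also lowest.

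By tendon, 25 of the 52 members (48.1%) were lowest in tendon 1, against 30.1% of all genes, and 6 (11.5%) were highest there, against 33.7%. In tendon 2, 27 members (51.9%) were highest and 6 (11.5%) lowest, against 34.0% and 19.9% of all genes. In tendon 3, 7 were highest and 8 lowest (13.5% and 15.4%), against 15.2% and 17.3%, and in tendon 4, 12 were highest and 13 lowest (23.1% and 25.0%), against 17.1% and 32.7%. The counts of highest and lowest tendon moved with the scaling. In TPM, 10 members were highest in tendon 2, against 13.1% of all genes, while 17 were lowest in tendon 1, against 22.0%. In TPM 14 members were highest in tendon 1, against 44.2%.

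Ratios of members within a tendon are free of the scaling between tendons. Of 14 ratios fixed, 7 had an entry for both genes, and the test was the exact two-sided sign-flip permutation test, whose smallest possible p at this number of tendons is 0.13, so none could reach 0.05. PRDX6 was 0.593, 0.562, 0.570 and 0.578 times PRDX1 in tendons 1 to 4, the narrowest of the 7 ratios (mean log2 ratio -0.80 ± 0.03, SD, n = 4; exact permutation p = 0.13, adjusted p = 0.146). CAT was 0.175, 0.140, 0.223 and 0.303 times SOD1, and thus below it in all 4 in TPM (mean log2 ratio -2.31 ± 0.48). Without length correction that mean was -0.42 (exact permutation p = 0.25, n = 4), and CAT, at 119 TMM-normalised CPM, stood above SOD1, at 106, in tendon 4. HMOX2 was 1.87, 4.44, 2.28 and 2.62 times HMOX1, with tendon 2 the highest. NQO1 was 3.64, 2.73, 3.95 and 2.91 times NQO2, and MSRB3 10.02, 7.83, 6.06 and 5.56 times MSRA. ALDH2 was 8.30, 4.21, 3.87 and 3.26 times ALDH1A1, with tendon 1 the highest; the mean log2 ratio was 2.20 ± 0.59, and 0.50 without length correction. In TPM these 5 ratios also lay on a single side of 1 in 4 of 4 tendons, each with an exact permutation p of 0.13 and an adjusted p of 0.146. GCLM was 0.803, 0.865, 0.918 and 1.09 times GCLC (mean log2 ratio -0.13 ± 0.19; exact permutation p = 0.375, adjusted p = 0.375), above 1 in tendon 4 alone. Without length correction its mean was -1.29 ± 0.19 (exact permutation p = 0.13, n = 4).

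**Figure D5:**
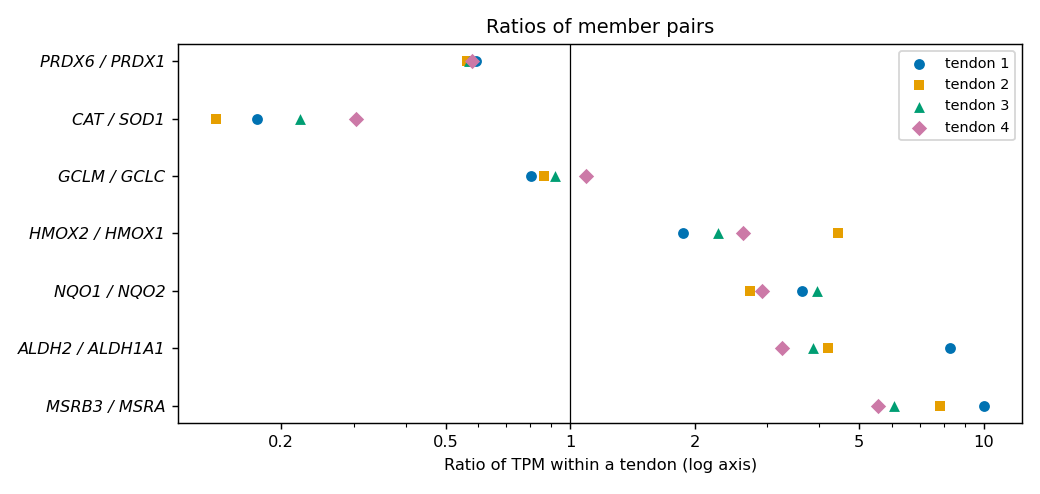
TPM ratio of 7 member pairs within each tendon on a log axis, with a line at 1 (points, tendons 1 to 4). The 4 points of PRDX6 over PRDX1 nearly coincide between 0.562 and 0.593, whereas ALDH2 over ALDH1A1 ranged from 3.26 to 8.30.

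For 10 members the table held 2 transcripts, and the counts of a gene are divided between them by estimation. NFE2L2 had a transcript of 1797 bases and another of 7905 bases, and the shorter took 80.6% ± 2.07 of the gene's TPM (SD, n = 4). In estimated counts, without length correction, the shorter had 2523, 3404, 3730 and 3255 in tendons 1 to 4. The longer had 2941, 3015, 3805 and 3846, and so stood above the shorter in every tendon but tendon 2. For MSRB3, the transcript of 555 bases took 63.8% ± 3.13, and for ALDH18A1 that of 3211 bases took 73.8% ± 1.79. The transcript of 2707 bases of GSR took 90.3% ± 8.65, with 100% in tendon 1 and 79.7% in tendon 2. For AKR1B1, 99.5% to 99.8% came from the transcript of 1309 bases, and for GPX5 and NQO1 a single transcript held all counts to within rounding.

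Of the 68 members, 56 were placed on 19 chromosomes, 12 of them on chromosome 13 and 7 on chromosome 12, and the other 12 on unplaced scaffolds. There were 5 pairs of members within 100 kb of each other, namely GPX5 with GPX6, GSTM2 with GSTM3 and with GSTM4, GSTO1 with GSTO2, and AKR1A1 with PRDX1. The last pair was 29382 bases apart on opposite strands. A gene that overlapped the span of a member was listed for 6 members. Of these, MSRB1 overlaps RPL3L, a ribosomal protein gene of muscle, on the same strand, with RPL3L at 27.1, 85.9, 64.7 and 69.98 TPM in tendons 1 to 4, also lowest in tendon 1. TXNDC5 overlaps BMP6 and NFE2L2 overlaps AGPS on opposite strands, and the use of strand in counting is not given in the sources used here, so these members are less certain.

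Other genes of the same pathways were taken from 6 lists of 80 symbols, of which 62 had an entry. A range could be read for 42 (10 CPM or more on average), and it reached 2-fold in 7 of them, against 10% of all genes, with a median of 1.35-fold. Of the 6 regulators of NFE2L2 or its partners with an entry, all were under 2-fold; NFE2L1, a relative of NFE2L2, had 280.4, 261, 270.4 and 296 TPM in tendons 1 to 4 and SQSTM1, which can sequester its repressor KEAP1, 232, 252, 248 and 217 TPM. SOD3, the secreted superoxide dismutase of the matrix, had 1237, 1910.5, 3132 and 1169.8 TPM, a range of 2.77-fold with tendon 3 highest, and so exceeded SOD1 in each tendon. CYB5R3, a cytochrome b5 reductase, had 1199, 1141, 1210.1 and 997 TPM. CP, ceruloplasmin, a ferroxidase, had 665, 435, 604 and 291 TPM, lowest in tendon 4. IDH2, which supplies mitochondrial NADPH, had 81.3, 194, 87.7 and 142 TPM, lowest in tendon 1 and highest in tendon 2, and TKT, of the pentose phosphate pathway, had 119.7, 105, 96.6 and 114 TPM. PARK7, EPHX1 and MGST3 had means of 237 ± 24.0, 151 ± 28.4 and 105 ± 14.1 TPM. The other genes past 2-fold were GLRX2, GGT7 and CBS of the thiol cycle and NOS3 of the endothelium, at means between 3.08 and 40.5 TPM, and these 4 are named because they passed.

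The symbol rule does not reach every gene of these families. A RefSeq gene table of another rabbit assembly, mOryCun1.1, lists 79 symbols under the same rule, of which 64 had an entry here and 15 did not, among them TXN, PRDX2, PRDX3, PRDX5, SOD2, FTH1 and GPX1 to GPX4. The levels of those 15 are not analysed here. Beside the members, 4 genes without a symbol carried glutathione or aldo-keto as the first word of their description in the table. The most abundant of them (ENSOCUG00000005938.2, chromosome 9, 16889539 to 16890546) reached 555, 673, 746 and 569 TPM from tendon 1 to tendon 4, above each member except FTL. It was picked after its values were seen, and which enzyme it encodes is not given in the table.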

How the data were processed

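Per the file headers, the deposited table holds estimated counts per transcript for 4 tendons, with transcript length in bases as other deposited annotation; the totals differ between tendons, as in values without scaling. Kallisto 0.42.4, bcl2fastq, FastQC and OryCun2.0 appear in the submitters' processing notes with no roles; read filters and strandedness are not given in the sources used here. Libraries, per the labels' protocols, required an RNA integrity number above 6 and a DV200 above 50%.

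TPM were computed from counts and annotated lengths and summed per gene. Of 78 member transcripts, 44.9% had a length divisible by 3 (64.5% of all transcripts), so some models may hold the coding part alone. Counts were rounded to whole numbers and scaled with TMM (edgeR 4.0.16, R 4.3.3). The same tool gave coefficients of variation from a model without predictors, over genes that reached 1 CPM in 2 or more tendons, 61 members among them. DESeq2 1.42.0 size factors were an alternative. Ranges were read for genes averaging 10 CPM or more. On simulated data made with a coefficient of 0.3, the estimate over 12747 genes was 0.301, and it was 0.332 over 12702 genes when 200 of them were changed 8-fold in 1 tendon. Python 3.11.15 was used for other steps.

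Values in each tendon are given for members with a mean of at least 100 TPM, up to 4 per role group, those past 2-fold and those in a ratio; other genes of the pathways are named from 100 TPM, and those past 2-fold after their values were seen. The members, lists and ratios were chosen with earlier results of these data known. Alternatives were other scalings, filters, folds and pseudocounts, the total without mitochondrial genes, and each tendon left out in turn. Promoter and protein sequences were not used here.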

Additional observations from a re-analysis of the deposited data

Results flagged for a closer look

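Dixon's ratio, the gap of the most distant tendon to its neighbour divided by the whole range, was compared with its 95% critical value for 4 tendons. Of 65 members with any count, 3 passed it in TPM, where chance gives about 3.25. GCLC had a ratio of 0.905, with 12.8 TPM in tendon 2 and 15.5 to 15.8 TPM in the others. ALDH1A2 had 0.860, with 24.2 TPM in tendon 1 and 14.4 to 15.8 TPM in the others. GPX7 had 0.839, with 34.9 TPM in tendon 3 and 49.1 to 51.8 TPM in the others. On log2(CPM + 1), GSTM4 (0.839) and MSRA (0.842) passed instead, and the first 3 did not. GSTM4 stood apart in tendon 2, the highest at 34.4 TMM-normalised CPM, with 29.6 to 30.3 CPM in the others. MSRA stood apart in tendon 1, the lowest at 8.10 CPM, with 11.02 to 11.7 CPM in the others. No member passed on both scales. The shares of the role groups with more than 1 gene did not pass in TPM.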

How the results depend on the processing

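The share of all members was 0.470% without length correction and 0.699% of the total without mitochondrial genes. Members past the fold numbered 14 of 52 at a fold of 1.5, against 29.1% of all genes. They numbered 0 of 52 at a fold of 3 (3.97%). At a fold of 2 with no filter on low counts they numbered 9 of 65 (38.1%). When a tendon was left out, 0 to 3 passed (5.32% to 8.83%), and 0 was reached without tendon 1. Under DESeq2 size factors, library totals and 1 CPM added, the same 3 genes remained. With the share of all genes under the same setting in brackets, members highest in tendon 1 numbered 10 without the filter (27.7%) and 14 in TPM (44.2%). Highest in tendon 2 were 13 with library totals (15.5%) and 10 in TPM (13.1%), and highest in tendon 4 were 22 (34.8%) and 20 (27.5%). Lowest in tendon 2 were 10 with library totals (39.1%), 10 without the filter (25.4%) and 15 in TPM (45.1%), and lowest in tendon 4 were 8 with library totals (13.9%). With a tendon left out, the highest counts ran from 7 to 16 in tendon 1 (37.1% to 43.4%) and from 10 to 15 in tendon 3 (20.9% to 30.8%). In tendon 4 they ran from 12 to 21 (21.8% to 30.4%). The lowest counts then ran from 6 to 12 in tendon 2 (23.3% to 32.2%) and from 9 to 21 in tendon 3 (23.5% to 32.7%). The sign of the 7 mean log2 ratios was kept under every alternative run, but without length correction CAT over SOD1 went from -2.31 to -0.42 and was no longer below 1 in every tendon, GCLM over GCLC went from -0.13 to -1.29 and was then below 1 in every tendon, and ALDH2 over ALDH1A1 went from 2.20 to 0.50. The common coefficient of variation ran from 0.232 to 0.292 over all alternatives. Of 42 member levels, 34 moved by more than 1 SD without length correction and 19 without mitochondrial genes in the total. Leaving out a tendon cannot move a mean of 4 by 1 SD, so this rule cannot judge that alternative. Members under about 10 counts are limited by depth.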

Other observations

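Members named here were picked after their values were seen, and none of the values below was tested. ALDH18A1 and ALDH4A1 act in proline synthesis and proline breakdown. In tendon 1 ALDH18A1 was highest and ALDH4A1 lowest, but neither gene passed the critical value of Dixon's ratio on either scale. The TPM of ALDH18A1 was 18.1, 7.89, 6.45 and 4.09 times that of ALDH4A1 in tendons 1 to 4. The type I collagen chain COL1A1, a proline-rich protein, had 15218, 8838, 3672 and 5354 TPM in the same tendons. COL1A1 was thus lowest in tendon 3, whereas the ratio was lowest in tendon 4, and a link between them was not tested.

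ALDH1L1, a folate enzyme, was under 10 CPM on average and so outside the range count, but had the widest range among members with at least 10 counts in every tendon. It had 0.413, 1.61, 1.25 and 4.58 TPM in tendons 1 to 4, on 19, 127, 88 and 354 counts. The summed adipocyte markers were 259, 426, 580.1 and 1202 TPM and the summed fast fibre markers 17.4, 80.5, 23.3 and 2387 TPM. The summed macrophage markers were 90.9, 72.7, 176 and 226 TPM. Each of these sums was highest in tendon 4, and their part in the value was not tested.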
